A study of Mus musculus with 6 samples.

Results

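The macrophage identity genes examined here were 10 genes named by symbol, Lyz2, Adgre1, Cd68, Cd14, Aif1, Itgam, Mertk, Fcgr1, Spi1 and Ptprc. All 10 were found among the 17830 genes of the count table, and all 10 were among the 13484 genes that passed the filter on low counts. They were followed in bulk RNA sequencing of skull bone cells from 6-month-old mice, with 3 control libraries (mOCN-Cre; Ai9) and 3 APPswe libraries (TgAPPswemOCN-Cre; Ai9). The authors describe the sequenced mice as male. Both groups carried mOCN-Cre, a Cre recombinase inserted behind the osteocalcin gene Bglap, and Ai9, a reporter from which the red protein tdTomato is made once Cre has acted. The APPswe mice also carried a human APP transgene with the Swedish mutations, driven by the CAG promoter and opened by Cre. The tdTomato-positive cells of the skull were purified by flow cytometry and are labelled as osteoblasts. The authors describe a culture in which cells grow out of calvarial bone chips. Their account of the sequencing does not say whether the sorted cells came from it. The number of mice behind a library is not given in the sources used here, so the p-values measure the spread between these libraries, which may be technical.

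Macrophages are phagocytes of the myeloid lineage that engulf dead cells and microbes and digest them in lysosomes. Their identity is set by PU.1, the transcription factor encoded by Spi1, and they are recognized by a small group of surface receptors, lysosomal proteins and the cytoplasmic protein IBA1, the product of Aif1. In bone, macrophages lie along bone surfaces and in the marrow, and their precursors also give rise to osteoclasts, the cells that resorb bone. None of the 10 genes is a marker of the osteoblast lineage.

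PU.1 binds purine-rich sites with the letters GAGGAA, known as the PU box, so the members' promoters were searched for these letters on both strands in the 250 bases before the annotated start (RefSeq, GRCm38.p6). Windows were found for 7 of the 10 members, Lyz2, Cd68, Aif1, Itgam, Mertk, Fcgr1 and Ptprc. The letters were present for 5 of these 7 (Cd68, Itgam, Fcgr1, Aif1 and 1 of the 2 windows of Ptprc). Counted by window this was 5 of 8, against 23.3% of all 32851 windows of this length. They were also present for 15 of 31 genes with a window from the list of other macrophage genes used below. The longer run GAGGAAGT, which contains the first motif, was present for 0 of the 7 and in 2.44% of all windows. A match of letters is a description and not a binding site. The windows printed here are those of Cd68 (chr11:69666171-69666420, minus strand) and Itgam (chr7:128062390-128062639, plus strand), whose transcripts were lower in APPswe libraries, and of Aif1 (chr17:35176053-35176302, minus strand), whose transcript was higher, each written 5′ to 3′ with the matches on either strand in capitals.
Cd68: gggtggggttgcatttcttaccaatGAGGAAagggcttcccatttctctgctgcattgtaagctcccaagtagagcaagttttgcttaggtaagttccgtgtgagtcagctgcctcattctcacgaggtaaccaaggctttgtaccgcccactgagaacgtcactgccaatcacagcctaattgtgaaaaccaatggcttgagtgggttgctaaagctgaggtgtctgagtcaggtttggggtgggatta
Itgam: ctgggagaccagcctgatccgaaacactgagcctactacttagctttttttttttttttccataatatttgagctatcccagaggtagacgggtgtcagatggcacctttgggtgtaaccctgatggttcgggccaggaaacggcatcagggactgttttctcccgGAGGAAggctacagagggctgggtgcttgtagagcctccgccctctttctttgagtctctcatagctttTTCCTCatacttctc
Aif1: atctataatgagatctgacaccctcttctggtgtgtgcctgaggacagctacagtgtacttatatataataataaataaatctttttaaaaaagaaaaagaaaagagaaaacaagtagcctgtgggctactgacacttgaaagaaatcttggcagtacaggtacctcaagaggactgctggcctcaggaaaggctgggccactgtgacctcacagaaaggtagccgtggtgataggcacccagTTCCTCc
The matches began 225 bases before the start in Cd68, 84 and 15 bases before it in Itgam, and 7 bases before it in Aif1. The annotated span of Aif1 reaches to position 35176083 and that of Ptprc to 138175756, beyond the starts used for their windows. The Aif1 match and the Ptprc match therefore each lie within the span of their own gene. The letters stood before the starts used for members that changed in opposite directions.

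The libraries held between 17263757 and 18398392 counts, and 3 counts, taken as the floor of detection, corresponded to between 0.167 and 0.173 CPM (counts scaled to library size, with TMM factors). Counting error was therefore small for the 10 members, whose lowest count in any library was 234. Control replicate 2 stood apart from the other libraries. Summed over Uty, Kdm5d, Ddx3y and Eif2s3y, which lie on the Y chromosome, it had 2 counts, against 2257 to 3406 in the others, and it had 1 count of Bglap, against 115 to 204. The library name of control replicate 2 is marked S, whereas the names of all other libraries are marked L. The authors' account of the sequencing does not explain these letters. The mice are described as male, and the reason for the few Y-linked counts of control replicate 2 was not tested. The collagen genes Col1a1 and Col1a2 of the osteoblast list were high in all 6 libraries, with 3585 to 5705 CPM for Col1a1, whereas Bglap, the gene that drove the Cre, was at most at 11.5 CPM and Sp7, a transcription factor of osteoblasts, at most at 21.2 CPM. Where a call given here changed without control replicate 2, both values are given.

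Measured per transcript length, as FPKM (fragments scaled to transcript length and library size), macrophage identity genes were among the most abundant transcripts of these cells. Lyz2, which encodes lysozyme M, a secreted and granule enzyme that cuts bacterial cell walls, ranked 1 of 17830 genes in each control library and 3 in each APPswe library, where the ferritin genes Ftl1 and Fth1 stood above it. Its level was 16486 ± 4036 FPKM (SD, n = 3) in control and 9800 ± 425 FPKM (SD, n = 3) in APPswe libraries. Cd68, a heavily glycosylated protein of the lysosomal membrane, ranked between 85 and 90 in control and between 173 and 186 in APPswe libraries. Of the 60 combinations of a member and a library, 41 fell among the 1783 highest-ranked genes, with 6 to 8 members per control library and 7 in each APPswe library.

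In control libraries the order of FPKM levels was Lyz2, Cd68 (1131 ± 32.0), Adgre1 (203 ± 42.0), Cd14 (178 ± 73.5), Spi1 (167 ± 6.38), Itgam (119 ± 15.4), Ptprc (45.0 ± 10.5), Fcgr1 (40.8 ± 21.1), Aif1 (31.7 ± 11.1) and Mertk (16.1 ± 3.87; SD, n = 3 each). The libraries of neighbours in this order overlapped for Adgre1 and Cd14, Cd14 and Spi1, Ptprc and Fcgr1, and Fcgr1 and Aif1. In APPswe libraries Aif1 stood at 75.8 ± 2.74 FPKM (SD, n = 3), above Ptprc (42.1 ± 3.59), Fcgr1 (21.8 ± 0.840) and Mertk (18.1 ± 1.12), and the only neighbours that overlapped were Cd14 (88.5 ± 6.57) and Itgam (81.3 ± 1.73). Aif1 was the member whose rank moved furthest up, from between 2475 and 4567 in control to between 1252 and 1342 in APPswe libraries. Cd14 moved down, from between 330 and 724 to between 1023 and 1185.

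**Figure D1:**
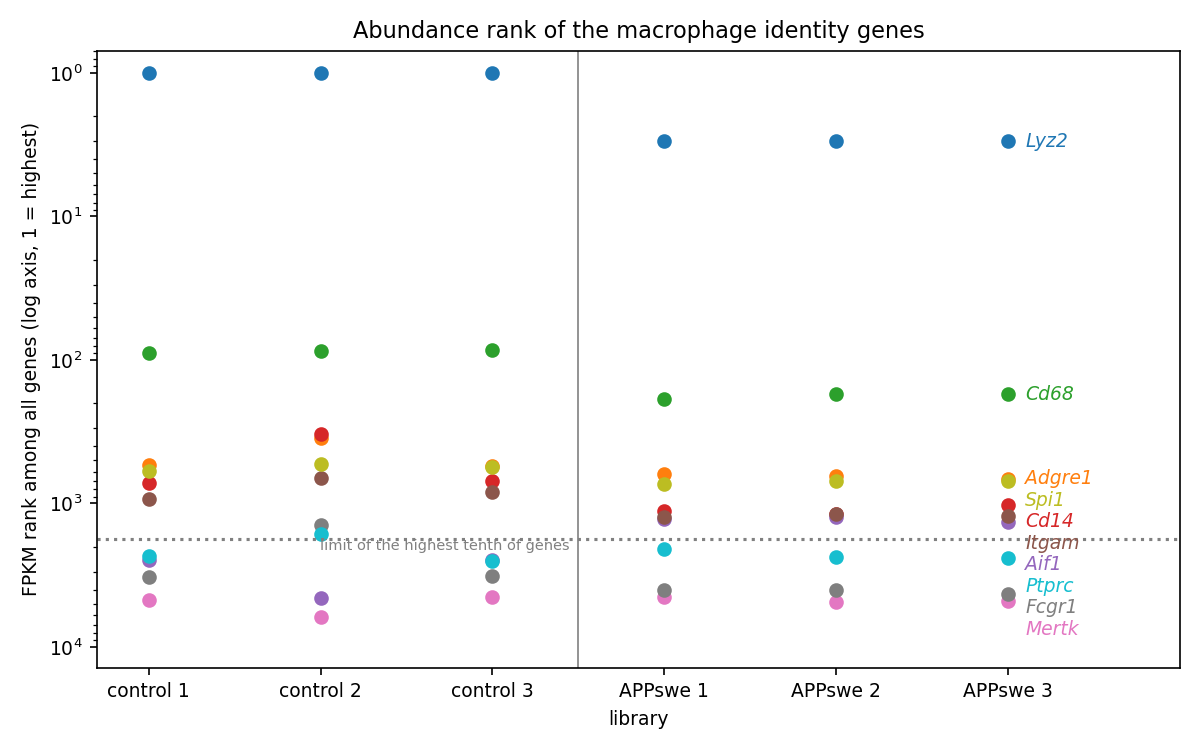
Rank of each macrophage identity gene by FPKM among all genes (log axis, 1 is the highest) in each of the 6 libraries, with the control libraries left of the vertical line and rank 1783 dotted. Lyz2 is at rank 1 in the 3 control and rank 3 in the 3 APPswe libraries, and Aif1 lies below the dotted line in control and above it in APPswe libraries.

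The counts of the genotypes were compared by the quasi-likelihood test of edgeR, Benjamini-Hochberg adjustment ran over all 13484 genes, and a gene passed where its adjusted p was 0.05 or less. Of the 10 members, 6 were lower in APPswe libraries (Lyz2, Cd68, Cd14, Itgam, Adgre1 and Spi1), 1 was higher (Aif1) and 3 did not pass (Fcgr1, Ptprc and Mertk). Among all genes tested, 12.0% passed as lower and 10.5% as higher. Where the log2 fold change also had to reach 1 in size, 1 member was lower (Cd14) and 1 higher (Aif1), beside 3.60% and 3.74% of all genes. Without control replicate 2, the 1 lower member by this rule was Lyz2 (-1.02) in place of Cd14 (-0.70). In that fit 0 members were higher, with Aif1 at 0.91, beside 905 lower and 670 higher of 13753 genes. The groups did not overlap for 7 members that were lower and for Aif1, which was higher, against 22.2% and 22.8% of all genes. The median log2 fold change of the members was -0.58, and that of all genes tested was -0.0033. In bulk RNA, fewer cells of a type and less RNA per cell cannot be told apart.

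The number of members that passed depended on the libraries used. Without control replicate 2, 7 members passed as lower, with Fcgr1 added, and Aif1 passed as higher, beside 25.0% and 23.3% of 13753 genes, and the median of the members was -0.40. Without control replicate 1 the number lower was 4, beside 8.29% of all genes, and without control replicate 3 it was 3, beside 7.79%. Without APPswe replicate 1, 2 or 3 it was 1 each time, beside 5.08%, 3.90% and 3.96% of all genes, so fewer genes of any kind passed in these fits. Aif1 also no longer passed without APPswe replicate 1, 2 or 3 (edgeR adjusted p from 0.0753 to 0.0837). Within libraries named with a hyphen (2 control, 1 APPswe) and within the others (1 control, 2 APPswe) the sign was that of the pooled difference for 8 members, whereas Mertk (0.35 and -0.19) and Ptprc (-0.14 and 0.012) differed in sign. Cd68 passed in each of the 16 alternatives run, and it was the only member to do so.

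**Figure D2:**
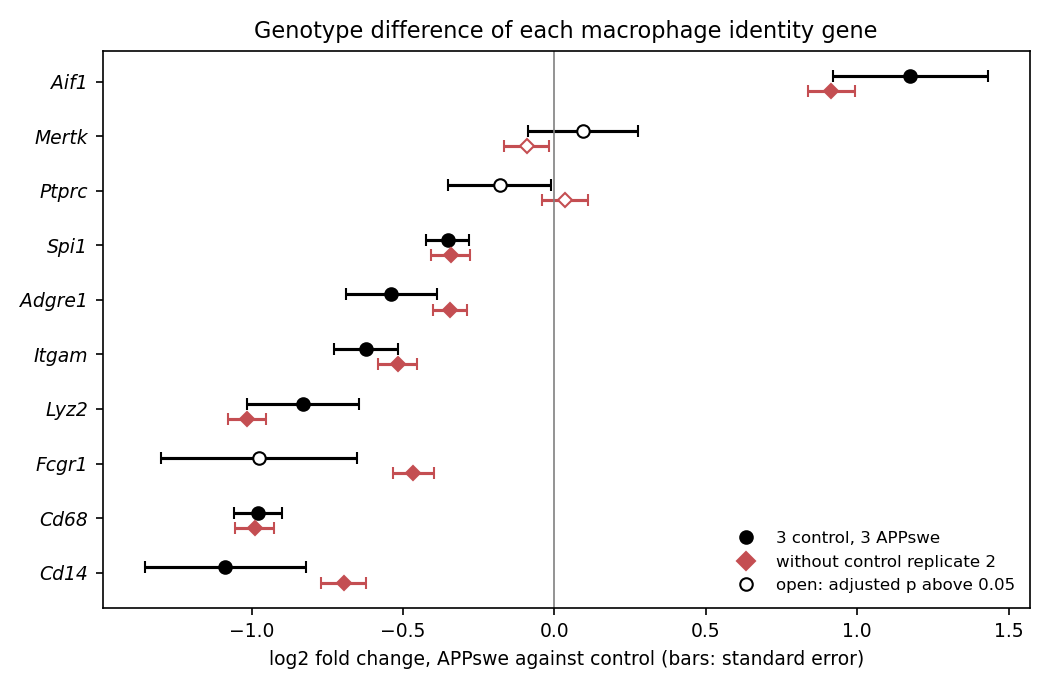
Log2 fold change of each macrophage identity gene, APPswe against control, from edgeR's quasi-likelihood fit with all 6 libraries (black) and without control replicate 2 (red); bars are standard errors and open symbols have an adjusted p above 0.05. Cd68 and Spi1 hardly move between the fits, Fcgr1 and Cd14 move toward 0 without that library, and Aif1 is the only member with a filled symbol right of 0.

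Among the lysosomal and granule proteins, Lyz2 had 14794, 9772 and 16084 CPM in control replicates 1, 2 and 3, and 7148, 7840 and 7879 CPM in APPswe replicates 1, 2 and 3. All 3 APPswe libraries lay below the lowest control, which was replicate 2. On the log2 scale Lyz2 changed by -0.83 (standard error 0.18, edgeR adjusted p = 0.0222), and -1.02 without control replicate 2 (edgeR adjusted p = 3.75e-07). In 7 of 16 alternatives its adjusted p was above 0.05, up to 0.132 with limma without a filter. Lyz2 alone took 1.45%, 0.959% and 1.55% of all counts in the control libraries and 0.739%, 0.802% and 0.802% in the APPswe libraries. Lyz1, a nearly identical neighbouring gene that was looked up after the values were seen, had counts equal to between 3.63% and 6.20% of those of Lyz2, and reads may have been divided between them. With both summed, the log2 change was -0.82 (standard error 0.19, edgeR adjusted p = 0.0258).

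Cd68 had 1130, 1127 and 1193 CPM in control replicates 1, 2 and 3, and 543, 599 and 609 CPM in APPswe replicates 1, 2 and 3. The control libraries were close together, replicate 2 included, and the groups were far apart. The APPswe level was 0.507 of the control level, or -0.98 on the log2 scale, with a standard error of 0.081 and an edgeR adjusted p of 0.00093. Within naming styles the log2 differences were -1.06 and -0.98. Over the 16 alternatives the log2 fold change stayed between -1.02 and -0.90.

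Among the surface proteins, Adgre1, which encodes the adhesion receptor F4/80, had 528, 754 and 531 CPM in control and 421, 421 and 407 CPM in APPswe replicates 1, 2 and 3. The groups did not overlap, and control replicate 2 was the highest library. The log2 fold change of -0.54 (standard error 0.15) had an edgeR adjusted p of 0.0436. Without control replicate 2 it was smaller, at -0.34 (edgeR adjusted p = 0.000499), and 12 of 16 alternatives gave an adjusted p above 0.05, up to 0.152. Itgam, the alpha chain of the complement-binding integrin CD11b/CD18, had 477, 614 and 529 CPM in control and 341, 360 and 351 CPM in APPswe replicates 1, 2 and 3. All APPswe libraries were again below all controls, by -0.62 on the log2 scale (standard error 0.11, edgeR adjusted p = 0.00902). For Itgam, 3 of 16 alternatives gave an adjusted p above 0.05, up to 0.0555 (edgeR without APPswe replicate 3). Ptprc, which encodes CD45, the phosphatase on all nucleated blood cells, had 193, 277 and 181 CPM in control and 209, 184 and 181 CPM in APPswe replicates 1, 2 and 3. Here the groups overlapped. Its log2 fold change was -0.18 with a 95% interval from -0.58 to 0.22 (edgeR adjusted p = 0.477), and it became 0.036 without control replicate 2.

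Among the receptors that sense or engulf particles, Cd14, the co-receptor for bacterial lipopolysaccharide, had 191, 378 and 202 CPM in control and 118, 113 and 132 CPM in APPswe replicates 1, 2 and 3. The groups did not overlap, although control replicate 2 was far above the other controls. The log2 difference was -1.09 (standard error 0.27, edgeR adjusted p = 0.0303), and -0.70 without that library (edgeR adjusted p = 2.52e-05). For Cd14, 6 of 16 alternatives gave an adjusted p above 0.05, up to 0.121 (edgeR without APPswe replicate 2). Fcgr1, the high-affinity receptor for IgG known as CD64, had 68.2, 155 and 69.0 CPM in control and 50.2, 50.8 and 47.7 CPM in APPswe replicates 1, 2 and 3. No APPswe library reached a control library, but with control replicate 2 included the log2 fold change of -0.97 (standard error 0.32) had an edgeR adjusted p of 0.0731. Without it the log2 fold change was smaller, at -0.47 (standard error 0.07), and passed (edgeR adjusted p = 0.000269). Mertk, the receptor kinase through which macrophages take up dying cells, had 76.7, 50.1 and 82.3 CPM in control and 79.0, 70.6 and 73.8 CPM in APPswe replicates 1, 2 and 3. These ranges overlapped, and the log2 fold change was 0.095 with a 95% interval from -0.34 to 0.53 (edgeR adjusted p = 0.742) and -0.091 without control replicate 2.

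Spi1, whose product PU.1 commits precursors to the myeloid lineage, had 198, 209 and 215 CPM in control and 156, 165 and 165 CPM in APPswe replicates 1, 2 and 3. The spread was small in both groups, with a coefficient of variation of 4.18% in control and 3.40% in APPswe libraries. Its log2 difference was -0.35 (standard error 0.071, edgeR adjusted p = 0.0167), the smallest among the 6 members that passed as lower. For Spi1, 4 of 16 alternatives gave an adjusted p above 0.05, up to 0.0837 (edgeR without APPswe replicate 2). Aif1, which encodes the calcium- and actin-binding protein IBA1 used to stain macrophages and microglia, went the other way. It had 26.5, 13.2 and 26.4 CPM in control and 49.3, 51.7 and 48.2 CPM in APPswe replicates 1, 2 and 3. The lowest APPswe library lay above the highest control. On the log2 scale it rose by 1.18 (standard error 0.26, edgeR adjusted p = 0.0205) and by 0.91 without control replicate 2 (edgeR adjusted p = 4.36e-06). With the naming style as a covariate its edgeR adjusted p was 0.0507, and the log2 difference was 1.40 among the libraries named with a hyphen and 0.92 among the others.

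**Figure D3:**
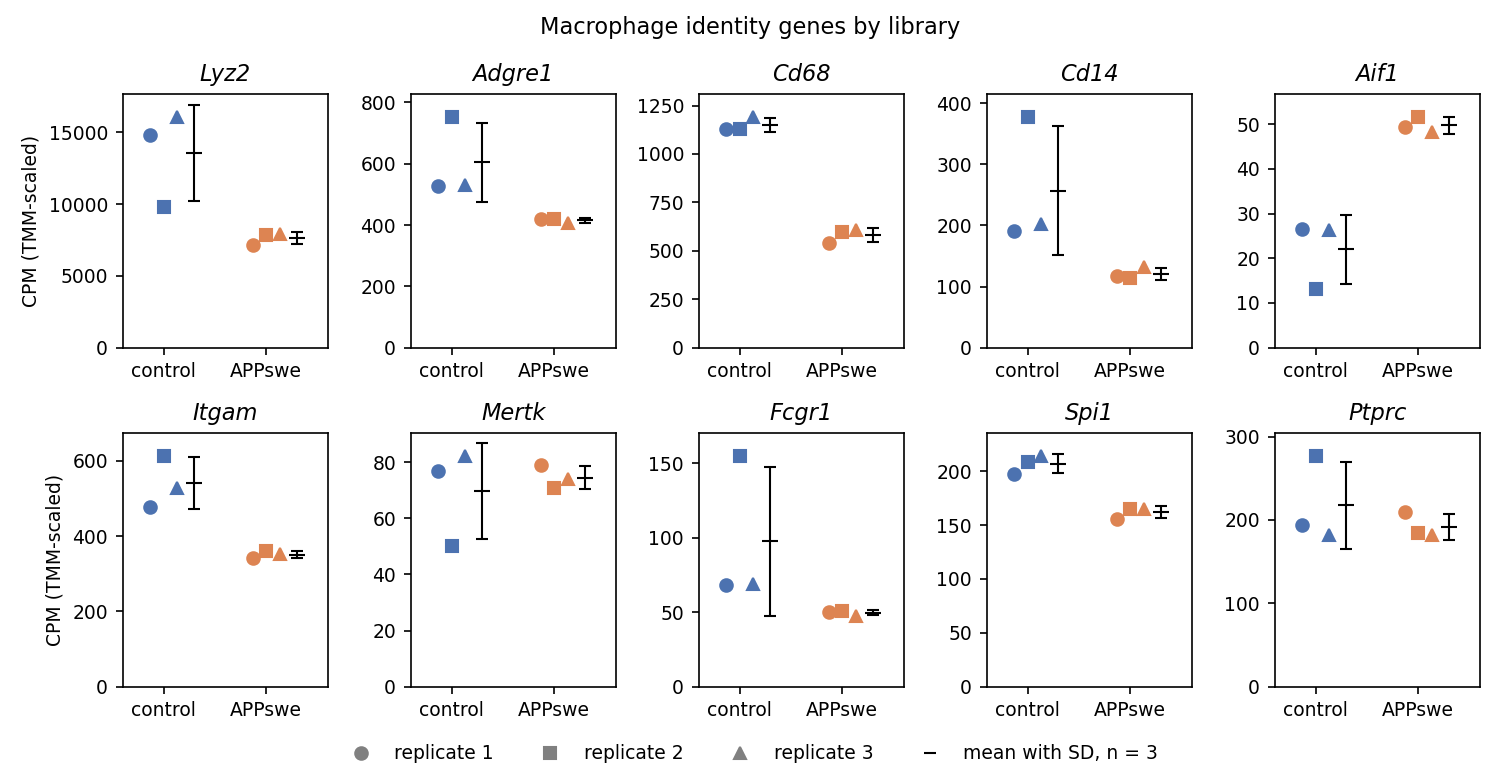
TMM-scaled CPM of the 10 macrophage identity genes in each library, control in blue and APPswe in orange, with a panel and a linear axis from 0 for each gene; black marks are the mean and SD of 3 libraries. Control replicate 2 (squares) is the highest control for Cd14, Fcgr1, Adgre1, Itgam and Ptprc and the lowest for Lyz2, Aif1 and Mertk, while Cd68 and Spi1 are close together in the 3 controls.

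The members did not vary together between control libraries. Relative to the mean of control replicates 1 and 3, control replicate 2 had 2.26 times the CPM for Fcgr1, 1.93 times for Cd14, 1.48 times for Ptprc, 1.42 times for Adgre1 and 1.22 times for Itgam. It had 0.498 times for Aif1, 0.631 times for Mertk and 0.633 times for Lyz2, while Cd68 (0.970) and Spi1 (1.01) were nearly level. In APPswe libraries the coefficient of variation was between 1.92% (Adgre1) and 8.01% (Ptprc), against 3.24% (Cd68) to 51.2% (Fcgr1) in control.

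To compare members without any scaling between libraries, each was taken as a log2 ratio of its counts to those of Ptprc in the same library. The ratio of Aif1 to Ptprc was -2.87, -4.40 and -2.78 in control and -2.09, -1.83 and -1.91 in APPswe replicates 1, 2 and 3, a mean difference of 1.40. For Cd68 it was 2.55, 2.02 and 2.72 in control and 1.37, 1.70 and 1.75 in APPswe libraries, a mean difference of -0.82. The mean differences were -0.86 for Cd14, -0.70 for Fcgr1, -0.46 for Itgam and -0.36 for Adgre1, and in these 6 ratios the groups did not overlap. For Lyz2 (-0.64), Spi1 (-0.19) and Mertk (0.28) they overlapped. Without control replicate 2 the mean differences were -1.05 for Lyz2, -0.38 for Spi1 and -0.13 for Mertk, and the groups no longer overlapped for Lyz2 and Spi1. Each of the 6 separated ratios had p = 0.1 in a two-sided exact permutation test over libraries, the smallest p that 3 against 3 allows, and p = 0.15 after Benjamini-Hochberg adjustment over the 9 ratios. With 3 libraries against 3, no ratio could reach an adjusted p of 0.05. Such ratios were not computed for all genes, so the numbers of separated ratios have no share over all genes beside them. In CPM, without a ratio, the groups did not overlap for 22.2% of all genes as lower and 22.8% as higher. Taken against the median of the members in place of Ptprc, 4 ratios had groups that did not overlap, those of Cd14, Fcgr1, Aif1 and Mertk. Those of Cd68, Itgam and Adgre1, which were separated against Ptprc, overlapped here, as did those of Lyz2 and Spi1. For Mertk the mean difference against this median was 0.55, and 0.10 without control replicate 2.

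Other genes of macrophages were taken from a list of 40, of which 38 were tested. In APPswe libraries 14 of the 38 passed as lower and 3 as higher, beside 12.0% and 10.5% of all genes, and their median log2 fold change was -0.42. Without control replicate 2 the numbers were 26 and 6, beside 25.0% and 23.3%. The 3 most negative among those that passed were Cd163, Siglec1 and Gpnmb. Cd163, a scavenger receptor for haemoglobin, had at most 18 counts per library and 0.985 ± 0.0721 CPM in control against 0.318 ± 0.142 CPM in APPswe libraries (SD, n = 3 each; edgeR adjusted p = 0.0278). Cd163 did not pass with DESeq2 (adjusted p = 0.0744), with the replicate block (0.0774), with the naming style as a covariate (0.0617), or when control replicate 1 or 3 or APPswe replicate 1, 2 or 3 was left out (0.0634 to 0.111). Siglec1, the sialic acid receptor CD169, was at 175 ± 31.9 CPM in control and 62.5 ± 2.47 CPM in APPswe libraries (SD, n = 3 each), which is -1.48 on the log2 scale with an edgeR adjusted p of 0.00114. Gpnmb, a glycoprotein of lysosome-rich macrophages, was at 5196 ± 456 and 2376 ± 155 CPM (SD, n = 3 each), which is -1.13 on the log2 scale with an edgeR adjusted p of 0.00104. C1qa, a chain of the complement protein C1q that macrophages secrete, was at 960 ± 133 and 537 ± 32.2 CPM (SD, n = 3 each; edgeR adjusted p = 0.00511).

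The 3 genes of this list that passed as higher were Marco, Tfec and Runx1. Marco, a scavenger receptor for bacteria, had 3.12, 0.562 and 2.82 CPM in control and 34.4, 31.4 and 34.0 CPM in APPswe replicates 1, 2 and 3, which is 3.94 on the log2 scale (standard error 0.49) with an edgeR adjusted p of 0.00311. The transcription factors Tfec and Runx1 were higher by 0.51 and 0.35 on the log2 scale, with edgeR adjusted p-values of 0.0208 and 0.0242. Neither passed without control replicate 3 or without APPswe replicate 1, 2 or 3 (0.0687 to 0.0817 for Tfec, 0.0574 to 0.0976 for Runx1), and Tfec also failed without control replicate 1 (0.0641) and with the replicate block (0.0566). Csf1r, the receptor for the growth factor CSF1 on which most macrophages depend, had 778, 1362 and 820 CPM in control and 939, 935 and 937 CPM in APPswe replicates 1, 2 and 3. The APPswe libraries lay between the controls, and the log2 difference of -0.074 (edgeR adjusted p = 0.832) turned to 0.23 without control replicate 2 (edgeR adjusted p = 0.00556). Cx3cr1, the fractalkine receptor, had 47.3, 157 and 50.9 CPM in control and 63.6, 59.0 and 60.4 CPM in APPswe replicates 1, 2 and 3. Its log2 difference was -0.48 (edgeR adjusted p = 0.482), and 0.32 without that library (edgeR adjusted p = 0.00512). Trem2, a lipid-sensing receptor, and Mrc1, the mannose receptor CD206, differed by -0.50 and -0.27 on the log2 scale (edgeR adjusted p = 0.127 and 0.307), and passed as lower without control replicate 2 (edgeR adjusted p = 0.000117 and 0.000508).

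**Figure D4:**
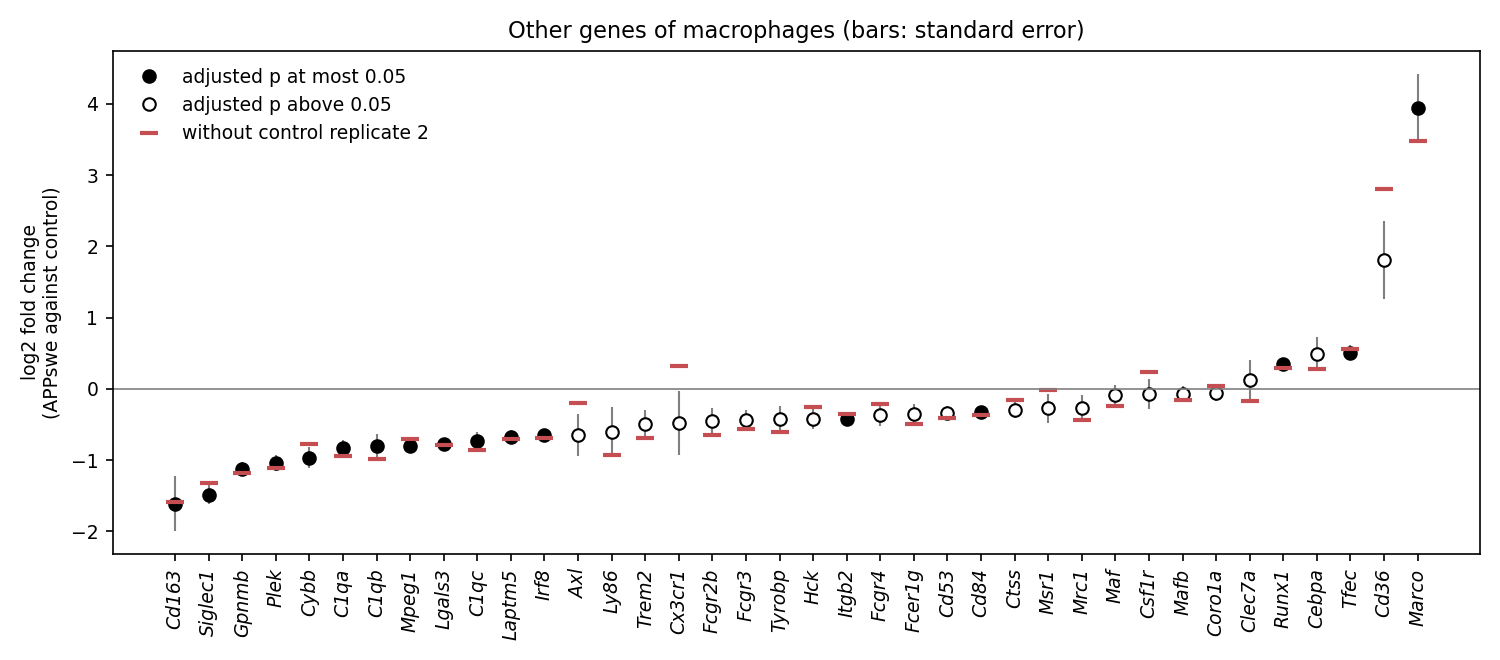
Log2 fold change, APPswe against control, of the 38 tested genes of the list of other macrophage genes, with standard errors; filled points passed and red marks are the values without control replicate 2. Marco stands apart at 3.94, 32 of the 38 points lie below 0, and Csf1r and Cx3cr1 are among the genes that change sign without control replicate 2.

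Markers of other cells were measured in the same libraries, and their part in the results above was not tested. Summed over 10 osteoclast markers, the level was 236 to 386 CPM in controls and 793 to 809 CPM in APPswe libraries, and 5 of 9 tested markers passed as higher and 0 as lower, beside 10.5% and 12.0% of all genes. Itgb3, an integrin chain of osteoclasts, went the other way, at 35.9 ± 12.3 and 20.8 ± 0.126 CPM (SD, n = 3 each; edgeR adjusted p = 0.0672), and passed as lower without control replicate 2 (2.68e-06). Acp5, the tartrate-resistant phosphatase of osteoclasts, was at 5.90 ± 1.90 and 200.4 ± 11.3 CPM (SD, n = 3 each; edgeR adjusted p = 0.000296), and Ctsk, their collagen-cleaving cathepsin, at 181 ± 43.7 and 309 ± 14.5 CPM (edgeR adjusted p = 0.0259). Calcr was at most at 0.167 CPM. Of the monocyte markers, Ccr2 was at 0.834 ± 0.332 CPM in control and 12.2 ± 1.02 CPM in APPswe libraries (SD, n = 3 each; edgeR adjusted p = 0.000763), and the summed level of the 5 markers was 0.959 to 3.15 CPM in controls and 12.8 to 14.4 CPM in APPswe libraries. The 6 dendritic cell markers summed to 20.1 to 70.3 CPM in controls and 54.7 to 62.0 CPM in APPswe libraries, nearly all of it Itgax, an integrin shared with macrophages (51.8 ± 28.3 and 54.6 ± 3.65 CPM; edgeR adjusted p = 0.916), which passed as lower without control replicate 2 (-0.32 on the log2 scale, edgeR adjusted p = 0.00583). Zbtb46, a transcription factor of dendritic cells, was at 1.34 ± 0.341 and 3.36 ± 0.469 CPM and passed as higher (edgeR adjusted p = 0.0145). Flt3 had 0 counts in each library, which allows up to 3 counts, or 0.167 to 0.173 CPM.

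Neutrophils, lymphocytes, mast cells and erythroid cells left few transcripts. S100a8 was at 0.225 to 1.18 CPM, while Mmp8, the most abundant gene of the neutrophil list, had 1.04, 14.0 and 0.847 CPM in control replicates 1, 2 and 3. APPswe libraries had 19.0 ± 1.59 CPM of Mmp8 (SD, n = 3). Its log2 difference was 1.84 (edgeR adjusted p = 0.209), and 4.33 without control replicate 2 (edgeR adjusted p = 1.93e-08). The T, B and NK cell list summed to at most 2.08 CPM, with Cd4 its most abundant gene at 1.14 ± 0.467 and 1.72 ± 0.0397 CPM, and the mast cell and erythroid list to at most 0.168 CPM, with Mcpt4 its most abundant gene. Among cells of other lineages, the 7 skeletal muscle markers summed to 1.91 to 6.24 CPM in controls and 111 to 116 CPM in APPswe libraries. All 7 passed as higher, beside 10.5% of all genes. Of the 7 markers, Myl1 was the most abundant, at 0.619 ± 0.973 and 26.2 ± 1.78 CPM. The 5 endothelial markers summed to 190.1, 26.8 and 195.7 CPM in control replicates 1, 2 and 3 and to between 9.47 and 11.1 CPM in APPswe libraries. Nearly all of the sum in control replicate 2 was Kdr, whereas Pecam1, Cdh5 and Tek were at 0.0562, 0.337 and 0.787 CPM in it. Kdr was at 2.99 ± 0.188 CPM in APPswe libraries (SD, n = 3) and at 10.9, 25.5 and 12.6 CPM in control replicates 1, 2 and 3. Endothelial Emcn was at 68.8, 0.112 and 66.0 CPM in those controls and 1.92 ± 0.723 CPM in APPswe libraries (edgeR adjusted p = 0.0695, and 3.9e-09 without control replicate 2). The 6 stromal markers summed to 1803 to 3411 CPM in controls and 5776 to 5930 CPM in APPswe libraries, led by Col3a1 at 1799.5 ± 577 and 4824 ± 73.2 CPM (edgeR adjusted p = 0.00861). Besides Col3a1 only Pdgfra passed (edgeR adjusted p = 0.00214), both as higher, beside 10.5% of all genes. The median log2 fold change of the 6 stromal markers was -0.00096. The matrix genes Dcn and Lum differed by -0.58 and -0.45 on the log2 scale (edgeR adjusted p = 0.579 and 0.488), and passed as lower without control replicate 2, at -1.08 and -0.83 (edgeR adjusted p = 7.71e-07 and 1.18e-05). The 12 osteoblast and osteocyte markers summed to 11086 to 14409 CPM in controls and 12658 to 13676 CPM in APPswe libraries, nearly all of it Col1a1, Col1a2 and Sparc. The highest sum was that of control replicate 2, which had 3 counts of Ibsp, 2 of Dmp1, 7 of Bglap2 and 35 of Alpl. The median of the 12 markers was 20.9, 1.91 and 21.1 CPM in control replicates 1, 2 and 3. In APPswe replicates 1, 2 and 3 this median was 25.3, 27.8 and 27.45 CPM. Of these markers, 3 passed as higher, Sp7 (edgeR adjusted p = 0.0205), Runx2 and Sparc, and 0 as lower, beside 10.5% and 12.0% of all genes. Without control replicate 2, 5 of the 5 endothelial markers passed as lower in place of Kdr alone, 7 osteoclast markers as higher and 1 as lower, and 4 osteoblast markers as higher and 5 as lower, beside 25.0% lower and 23.3% higher among all genes. These 5 lower osteoblast markers were Bglap, Bglap2, Ibsp, Dmp1 and Phex, and the 4 higher were Sp7, Runx2, Alpl and Sparc. Over all 6 libraries the 10 macrophage identity genes summed to 17683, 13349 and 19112 CPM in control replicates 1, 2 and 3 and 9115, 9855 and 9894 CPM in APPswe replicates 1, 2 and 3. Most of each sum was Lyz2, with 14794, 9772 and 16084 CPM in those controls and 7148, 7840 and 7879 CPM in those APPswe libraries. The median of the 10 genes was instead highest in control replicate 2, at 195, 328 and 208 CPM in those controls. In APPswe replicates 1, 2 and 3 this median was 183, 175 and 173 CPM.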

How the data were processed

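Total RNA of flow-sorted tdTomato-positive cells was made into libraries with a SMARTER mRNA kit and sequenced on the DNBseq platform. The submitters' processing notes name GRCm38; aligner, counting tool and strand setting are not given in the sources used here. The authors deposited read counts per gene without normalization, and FPKM values, rounded, whose blank cells (in 397 genes for libraries named with a hyphen and 716 for the others) were read as 0. The authors' deposited log2 fold changes and p-values hold their own comparison and were not used. Groups and replicate numbers came from the sample titles.

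The count model was edgeR 4.0.16 under R 4.3.3 (TMM, filterByExpr, quasi-likelihood test, no covariate, Benjamini-Hochberg adjustment over 13484 genes), with totals of 17263757 to 18398392 counts and a floor of 3 counts, for counting error only. The standard error was the log2 fold change divided by the square root of F. Levels of different genes were compared as FPKM. Alternatives were DESeq2 1.42.0, its size factors, no TMM, other filters, a replicate block, the style of library names, each library left out, and limma 3.58.1 on log2(FPKM + 1) and log2(FPKM + 0.1). The procedures were tested on simulated data. Members and gene lists were chosen with earlier results of these data known. Named were all 10 members; Csf1r, Cx3cr1, Trem2, Mrc1, C1qa and the 3 most positive and 3 most negative other macrophage genes that passed; and, per marker list, its most abundant gene plus set genes (Bglap, Sp7, Col1a1, Acp5, Ccr2, Flt3, Itgax, S100a8; another set gene is not reported here). Lyz1, Ftl1, Fth1, Calcr, Itgb3, Zbtb46, Pdgfra, Dcn, Lum, Runx2, Sparc, Kdr and the Y-linked genes were added after values were seen. Bglap2, Ibsp, Dmp1, Phex, Alpl, Pecam1, Cdh5 and Tek were also added then. Cd3e, Ms4a1 and Tpsb2 were not analysed here. Within each group, the counts of every pair of replicates differed beyond sampling noise (the chi-square divided by its degrees of freedom was 1.59 for APPswe replicates 2 and 3 and 6.17 or more for the other pairs), so none was merged as a repeat deposit; this does not show that they are separate mice.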

Additional observations from a re-analysis of the deposited data

How the results depend on the processing

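For the macrophage identity genes, the replicate block left 3 members lower at the adjusted p and 0 lower at both thresholds (adjusted p of at most 0.05 and a log2 fold change of at least 1 in size). The replicate numbers are shared only as numbers: deviations of same-numbered libraries correlated at 0.0838, -0.0432 and 0.19, and the block changed the genes passing from 1622 lower and 1414 higher to 1088 and 933. With naming style as a covariate, 0 members were higher by either rule. Limma on log2(FPKM + 1) or log2(FPKM + 0.1) left 0 lower at both thresholds, and without a filter 3 lower at the adjusted p and 0 at both. With single libraries left out, 1 to 7 members were lower and 0 to 1 higher at the adjusted p, 0 to 1 were lower and 0 to 1 higher at both thresholds, and the median lay between -0.67 and -0.40.

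For the other macrophage genes, DESeq2 called 2 higher at both thresholds, the median was -0.35 without TMM, and limma gave 2 lower and 2 higher at both thresholds with medians of -0.32 (pseudocount 1), -0.33 (pseudocount 0.1) and -0.30 (no filter). With single libraries left out, 9 to 26 were lower and 1 to 6 higher at the adjusted p, 2 to 4 lower and 1 to 2 higher at both, with medians of -0.43 to -0.37; the 26 and 6 were without control replicate 2. Without TMM the median of all genes moved to 0.0678. The separated ratios to Ptprc numbered 6 to 8 of 9 with single libraries left out, and no share over all genes was computed for them. By counts in place of FPKM, 43 of 60 ranks were at 1783 or higher in abundance.

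Signs turned without control replicate 2 for Mertk (-0.091), Ptprc (0.036), Csf1r (0.23), Cx3cr1 (0.32), Itgax (-0.32) and Bglap (-0.46); with the naming covariate for Csf1r (0.0018) and Bglap (-0.032); for Csf1r with limma (0.047); and for Bglap without APPswe replicate 3 (-0.025). With single libraries left out, the log2 fold change ranged from -0.22 to 0.23 for Csf1r, -0.77 to 0.32 for Cx3cr1, -0.32 to 0.33 for Itgax and -0.46 to 0.70 for Bglap. The causes were not tested. Without TMM 1286 genes passed as lower and 1840 as higher, and with limma 1012 and 1678.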
